A study of Mus musculus with 21 samples.

Results

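The 10 genes described here were named by symbol as chemokines that draw myeloid cells into tissue, and their RNA was followed in mammary tumours of sedentary and physically active mice. They were Cxcl1, Cxcl2, Cxcl3, Cxcl5, Ccl2, Ccl3, Ccl4, Ccl7, Ccl8 and Ccl12, out of 19241 genes listed in both tumour tables. Of these, 9 were listed. Cxcl3 had no row in either table. Each listed gene reached 10 reads or more in some tumour. All mice carried MMTV-PyMT, a transgene in which the promoter of mouse mammary tumour virus drives the polyoma middle T oncogene in mammary epithelium. There were 4 groups of 3 libraries, namely sedentary tumours at week 12, active tumours at week 12, sedentary tumours at week 18 and active tumours at week 18. The labels call the libraries biological replicates, and they do not state the form of the activity, whether the weeks count age, or whether 2 libraries came from 1 mouse. The p-values of group comparisons below set a difference between groups against the spread between these libraries. Those of correlations come from shuffling the 12 tumours without regard to group.

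Chemokines are small secreted proteins that bind to the extracellular matrix and guide leukocytes through G protein coupled receptors. CXC chemokines with a glutamate-leucine-arginine motif, among them CXCL1, CXCL2, CXCL3 and CXCL5, act on CXCR2 and attract neutrophils. CCL2, CCL7, CCL8 and CCL12 attract monocytes, largely through CCR2 (for mouse CCL8 also through CCR8), and CCL3 and CCL4 attract macrophages, monocytes and T cells. In mammary tumours, CCL2 is known for bringing in monocytes that become tumour-associated macrophages.

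The libraries held 20838963 to 28973775 reads. Values are normalized read counts, that is, reads divided by 1 size factor per library, and both tumour tables proved to share 1 scale. The tumour label fitted the 6 epithelial markers, among them Krt8, Krt18 and Epcam, whose summed normalized count was 56058 to 138751 per library. Some libraries stood apart. Active week 12 replicate 3 had a summed T cell marker count of 7924 and a summed B cell marker count of 19620, whereas the other 11 libraries had 90.5 to 324 and 17.8 to 138. It also had the highest summed adipocyte markers, 304361 against 650 to 72639 elsewhere. Its summed endothelial markers were the highest too, 15253 against 2229 to 5700, and its epithelial sum, 56058, was the lowest. All 3 sedentary week 12 libraries had summed muscle marker counts of 50366 to 109398, against 268 to 1118 in active week 12 libraries. Sedentary week 18 replicate 1 had the lowest summed count of 12 macrophage markers, 11269 against 16369 to 24703 elsewhere. Active week 18 replicate 1 had the lowest summed fibroblast markers, 14412 against 40941 to 127417 elsewhere. In bulk tumour RNA, fewer cells of a type and less RNA per cell cannot be told apart.

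The 10 genes lie in 3 clusters of the mouse genome (coordinates of GENCODE M21 on GRCm38, the assembly also called mm10, the build of the submitters' processing notes). Cxcl5, Cxcl3, Cxcl1 and Cxcl2 lie in this order on the plus strand of chr5:90759360-90905938. Ccl2, Ccl7, Ccl12 and Ccl8 lie in this order on the plus strand of chr11:82035571-82116799, a span of 81.2 kb. Ccl3, on the minus strand, and Ccl4, on the plus strand, lie at chr11:83647844-83664683. Promoter sequences of 300 bases, from 250 before to 50 after the start of the gene, were held by the RefSeq table of GRCm38.p6 for 6 of the 10 genes. They are shown for 2 neighbours of each large cluster, since the genes within a cluster are compared with each other below. Capitals mark matches on either strand to the NF-kB consensus, whose 2 overlapping matches form the run GGGAATTTCCC, and to TATAAA.
Cxcl1: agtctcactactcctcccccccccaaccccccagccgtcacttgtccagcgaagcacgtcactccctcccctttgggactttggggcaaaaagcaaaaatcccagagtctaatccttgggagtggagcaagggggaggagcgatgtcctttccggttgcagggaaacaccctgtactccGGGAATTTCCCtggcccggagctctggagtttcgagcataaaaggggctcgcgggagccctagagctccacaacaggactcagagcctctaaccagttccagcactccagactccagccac
Cxcl2: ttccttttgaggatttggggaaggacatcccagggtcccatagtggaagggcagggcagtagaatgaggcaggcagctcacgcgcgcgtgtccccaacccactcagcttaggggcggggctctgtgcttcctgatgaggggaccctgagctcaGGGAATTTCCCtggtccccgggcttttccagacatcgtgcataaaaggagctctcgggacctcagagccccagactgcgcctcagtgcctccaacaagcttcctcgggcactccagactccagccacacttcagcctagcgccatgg
Ccl12: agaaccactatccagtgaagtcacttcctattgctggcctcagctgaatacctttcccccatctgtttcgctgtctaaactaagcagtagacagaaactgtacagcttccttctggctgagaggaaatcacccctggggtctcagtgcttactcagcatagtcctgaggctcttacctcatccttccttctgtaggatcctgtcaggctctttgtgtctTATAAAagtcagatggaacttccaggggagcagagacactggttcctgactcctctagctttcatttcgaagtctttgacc
Ccl8: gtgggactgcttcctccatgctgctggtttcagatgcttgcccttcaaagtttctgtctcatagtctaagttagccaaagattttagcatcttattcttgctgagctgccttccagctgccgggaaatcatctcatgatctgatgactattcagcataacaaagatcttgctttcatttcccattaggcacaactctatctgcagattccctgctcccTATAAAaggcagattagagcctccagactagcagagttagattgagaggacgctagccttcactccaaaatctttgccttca

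The Cxcl1 promoter is the plus strand of chr5:90890995-90891294, with the NF-kB run at -71 to -61. Positions are counted back from RefSeq's start of the gene, the end of the first 250 bases, which for Cxcl1 and Cxcl2 is not the GENCODE start in the gene coordinates given here. The Cxcl2 promoter is chr5:90903649-90903948, with the same run at -97 to -87. The promoter of Cxcl3 held that run too. The Ccl12 promoter is chr11:82101595-82101894 and the Ccl8 promoter chr11:82114935-82115234, with TATAAA beginning at -31 and at -32. No NF-kB match was found in the windows of Ccl12, Ccl8 and Ccl3. Of 32851 promoters of the same length, 8.46% held an NF-kB match and 13.6% held TATAAA.

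Levels of different genes can be set beside each other only per length, so normalized counts were divided by the length of the longest transcript in kb. On that scale Ccl8 was the highest of the 9 genes, with a median of 1202 per kb over 12 libraries and a range from 245 to 2611. It lay above the next gene, Ccl2, in 12 of 12 libraries. Ccl2 had a median of 140 per kb, Ccl7 of 115 and Ccl12 of 100. These neighbours were not separated by the spread of the libraries, since Ccl2 exceeded Ccl7 in 9 of 12 libraries and Ccl7 exceeded Ccl12 in 9 of 12. A gap followed, with Ccl12 above Cxcl1 in 12 of 12 libraries. Cxcl1 had a median of 28.4 per kb, Ccl4 of 18.8, Ccl3 of 11.1, Cxcl5 of 9.02 and Cxcl2 of 4.51. Each of the first 4 of these was above the next in 7 to 10 of 12 libraries. The order was the same with merged exons or the coding transcript as the length. The gap above Cxcl1 depended on the length used. Per kb of coding transcript the Cxcl1 median was 55.7, and Ccl12 was above Cxcl1 in 11 of 12 libraries.

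**Figure D1:**
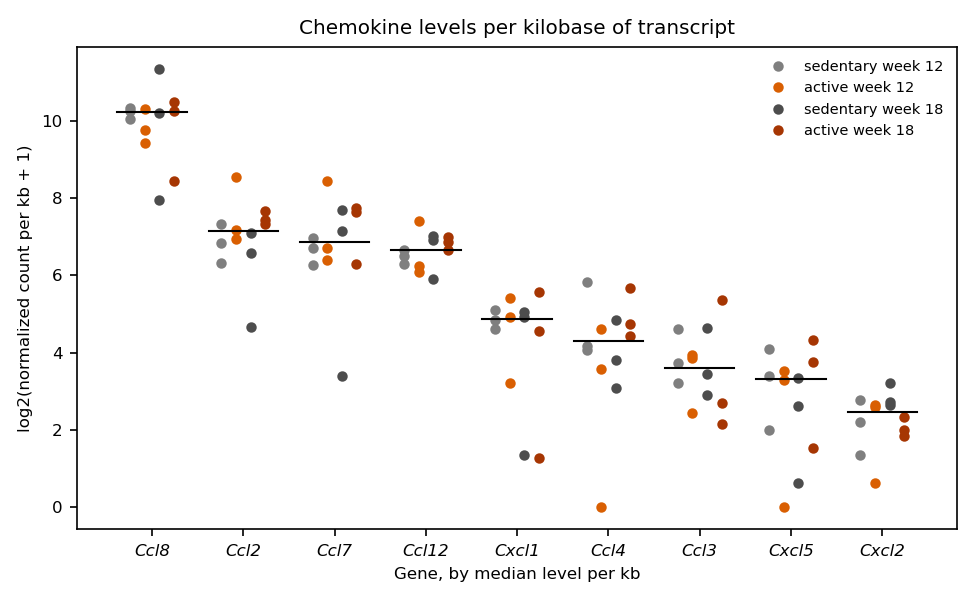
Level of each listed chemokine gene as log2(normalized count per kb + 1), where each point is 1 of 12 tumours coloured by group and each bar is the median. Ccl8 is highest in every tumour, Ccl2, Ccl7 and Ccl12 overlap, and the 5 other genes lie below Ccl12.

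As plain normalized counts, Ccl8 made up 28.7% to 74.4% of the summed count of the 9 genes. The lowest share was in active week 18 replicate 1 and the highest in sedentary week 18 replicate 3. The steadiest gene was Ccl12, whose highest library was 2.85-fold above its lowest. The same ratio was 10.6 for Ccl8, 15.3 for Ccl2, 32.3 for Cxcl1 and 36.2 for Ccl7. For 32 of 36 gene and group combinations the coefficient of variation between the 3 libraries exceeded that of read counting alone. The exceptions were Cxcl2 in both week 18 groups and Ccl12 in sedentary week 12 and active week 18 tumours.

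**Figure D2:**
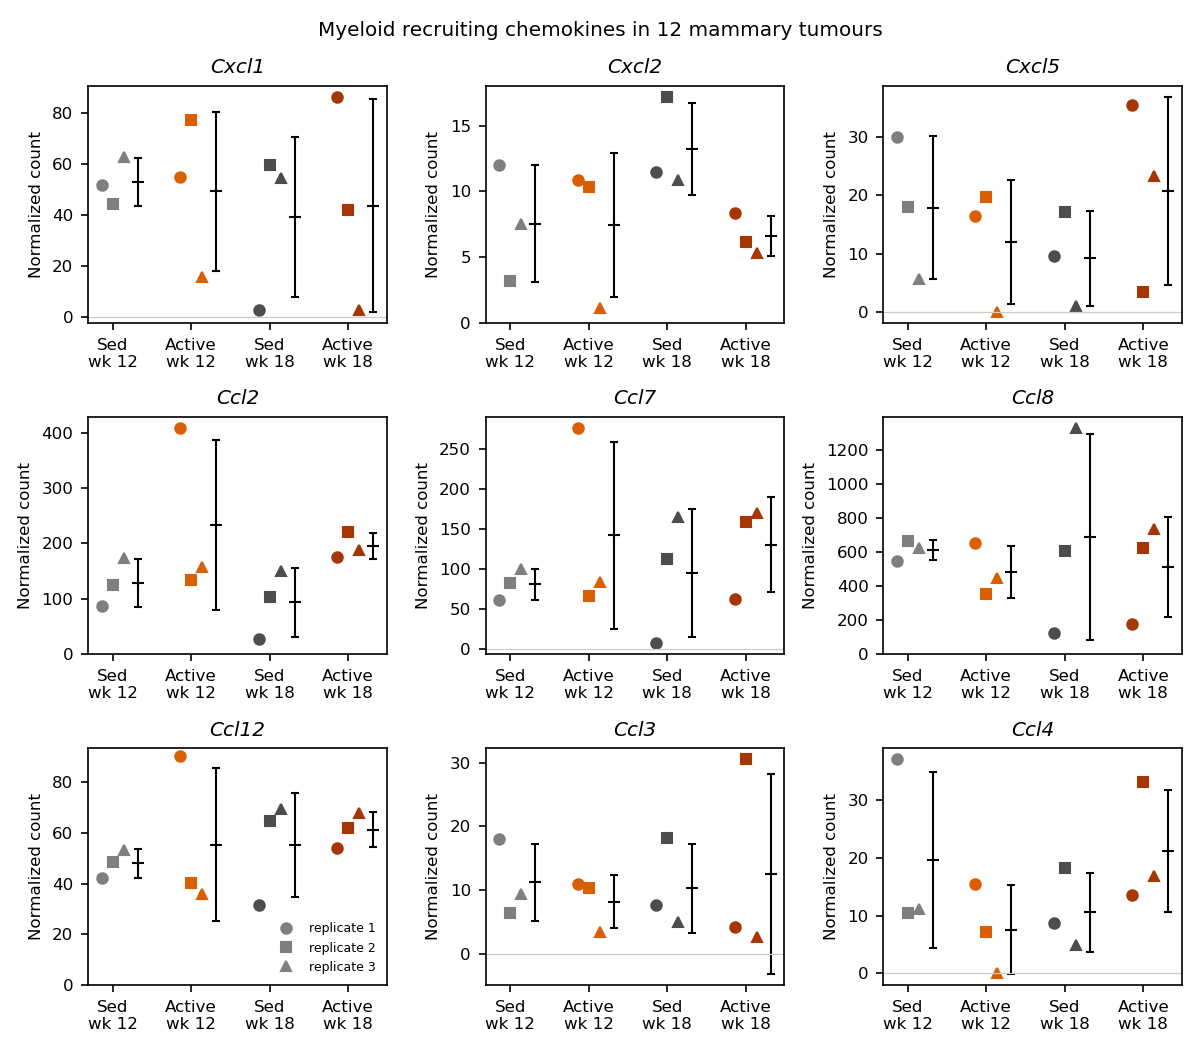
Normalized count of each listed chemokine gene by group, where each symbol is 1 library (circle, square and triangle for replicates 1, 2 and 3) and the bar gives mean ± SD (n = 3). Groups overlap in every panel except Ccl2 and Cxcl2 at week 18.

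At week 12, activity moved none of the 9 genes past the threshold. With limma on log2(normalized count + 1) and Benjamini-Hochberg adjustment over all genes at 0.05, 0 of 9 were called, against 0.517% of 19162 genes tested. No gene had an unadjusted p under 0.05 (4.09% of all genes), and for none did the 3 active libraries lie wholly above or below the 3 sedentary ones (9.13% of all genes). The log2 fold change of active over sedentary was above 0 for 3 genes (51.7% of all genes) and below 0 for 6, with a median of -0.36 against 0.01 over all genes. Without active week 12 replicate 3, 7 of 9 were above 0. That library held the lymphocyte markers, the highest adipocyte sum and the lowest epithelial sum. Without active week 12 replicate 1, 1 of 9 was above 0. The muscle markers that set the week 12 groups apart moved with the same comparison, and their part in the chemokine values was not tested.

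At week 18, 0 of 9 genes were called, as were 0% of 18939 genes tested. Cxcl2 alone had an unadjusted p under 0.05 (5.97% of all genes). Same-numbered week 18 libraries deviated together across genes (r = 0.163, 0.159 and 0.138). With replicate number as a block, 2 of 9 genes had an unadjusted p under 0.05, as did 1404 of 18939 genes. The smallest limma adjusted p of the 9 was then 0.609, that of Ccl4, and Cxcl2 followed with 0.621. Week 18 intervals and p-values below, and those of the difference between weeks, are from limma without this block unless stated. The groups did not overlap for Ccl2, higher in active tumours (6.03% of all genes were so), nor for Cxcl2, lower in active tumours (7.57%). On the log2 scale 6 genes were above 0 (51.1% of all genes) and 3 below, with a median of 0.22 against 0.01 over all genes. Without sedentary week 18 replicate 1, the library lowest in macrophage markers, 3 of 9 were above 0. edgeR and DESeq2 on the recovered reads called none of the 9 at either week.

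**Figure D3:**
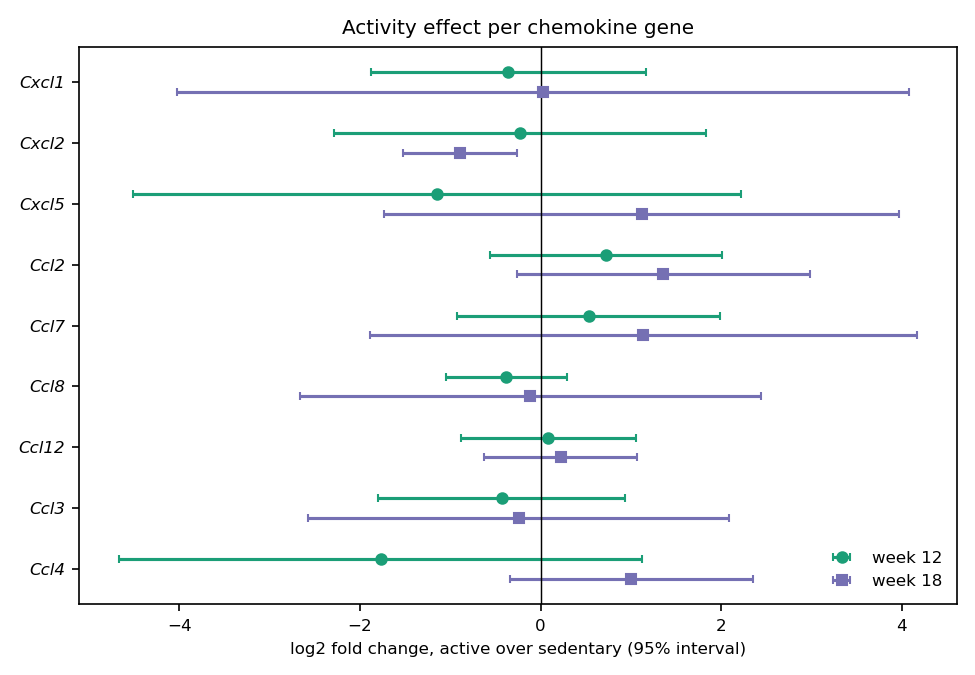
Log2 fold change of active over sedentary tumours per chemokine gene at week 12 (circles) and week 18 (squares), with 95% intervals from limma on log2(normalized count + 1) without the replicate block. Every interval includes 0 except that of Cxcl2 at week 18, whose adjusted p is 0.824.

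Ccl2 (chr11:82035571-82037453) encodes the main ligand of CCR2 on inflammatory monocytes. Sedentary week 12 libraries had 86.4, 124 and 174 normalized counts of Ccl2, and active ones had 409, 133 and 157. The active group overlapped the sedentary group, with replicate 1 alone far above the others. Group means were 233 ± 153 and 128 ± 44.0 (SD, n = 3), for a log2 fold change of 0.73 (95% interval -0.56 to 2.01, limma adjusted p = 0.97). At week 18 the sedentary libraries had 26.8, 103 and 150, and the active ones 176, 221 and 187. Each active library was above each sedentary one. Means were 195 ± 23.6 in active and 93.2 ± 62.0 in sedentary tumours (SD, n = 3), a log2 fold change of 1.36 (95% interval -0.26 to 2.98, limma adjusted p = 0.824). Without sedentary week 18 replicate 1 it was 0.64 (limma adjusted p = 0.687). The summed macrophage markers overlapped at week 18, with 11269 to 24497 in sedentary and 16983 to 21725 in active tumours.

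Ccl7 (chr11:82045712-82047525) encodes a monocyte attractant that also binds CCR1 and CCR3. Its normalized counts were 61.2, 83.3 and 100 in sedentary and 277, 67 and 83.6 in active libraries at week 12. Active replicate 1 was again the highest, while the other active libraries fell inside the sedentary range. At week 18 sedentary libraries had 7.66, 113 and 165 and active ones 62.4, 159 and 171. The low sedentary value, from replicate 1, rested on 8 reads. Log2 fold changes were 0.53 at week 12 (limma adjusted p = 0.97) and 1.14 at week 18 (95% interval -1.89 to 4.17, limma adjusted p = 0.85). Without active week 12 replicate 1 the first was -0.09, and without sedentary week 18 replicate 1 the second was -0.19.

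Ccl8 (chr11:82115185-82116799) encodes a chemokine for monocytes and T cells. At week 12 it had 545, 662 and 625 normalized counts in sedentary and 652, 350 and 446 in active tumours. Active replicates 2 and 3 were below all sedentary values and replicate 1 was among them. Means were 611 ± 59.9 and 483 ± 154 (SD, n = 3), a log2 fold change of -0.38 (95% interval -1.05 to 0.29, limma adjusted p = 0.97). At week 18 the spread was wider, with 125, 608 and 1330 in sedentary and 177, 620 and 735 in active libraries. Replicate 1 was the lowest of both groups there. The log2 fold change was -0.11 (95% interval -2.67 to 2.44, limma adjusted p = 0.985).

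Ccl12 (chr11:82101845-82103400) encodes a mouse CCR2 ligand close to CCL2. It varied least, with 42, 48.5 and 53.3 normalized counts in sedentary and 90.2, 40.2 and 35.7 in active tumours at week 12. Active replicates 2 and 3 lay below the sedentary range and replicate 1 above it. At week 18 sedentary libraries had 31.6, 64.8 and 69.4 and active ones 54.1, 62.1 and 67.7. The active values lay inside the sedentary range. Log2 fold changes were 0.08 at week 12 (95% interval -0.88 to 1.05, limma adjusted p = 0.986) and 0.22 at week 18 (95% interval -0.63 to 1.07, limma adjusted p = 0.888).

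Cxcl1 (chr5:90891241-90893115) encodes KC, a neutrophil attractant made by epithelium, fibroblasts and macrophages. Sedentary libraries at week 12 had 51.6, 44.3 and 62.7 normalized counts of Cxcl1, and active ones 54.7, 77.3 and 15.6. The lowest was replicate 3, the library with the lymphocyte markers. At week 18 sedentary tumours had 2.87, 59.7 and 54.5 and active tumours 86.3, 42 and 2.67. Each group thus held 1 library with 3 reads, and the groups overlapped throughout. The log2 fold change was -0.36 at week 12 (limma adjusted p = 0.97) and 0.03 at week 18, where the 95% interval ran from -4.03 to 4.08 (limma adjusted p = 0.999). The interval thus spanned changes of several fold in either direction.

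Cxcl2 (chr5:90903871-90905938) encodes MIP-2, a neutrophil attractant made mainly by activated myeloid cells. At week 12 it had 12, 3.16 and 7.49 normalized counts in sedentary and 10.9, 10.3 and 1.12 in active tumours, which overlapped. At week 18 sedentary libraries had 11.5, 17.2 and 10.9 and active ones 8.32, 6.12 and 5.35. Every active value was below every sedentary one. These values stood for 11 to 17 reads in sedentary and 6 to 8 reads in active libraries. Means were 13.2 ± 3.48 and 6.60 ± 1.54 (SD, n = 3), a log2 fold change of -0.89 (95% interval -1.53 to -0.26, limma adjusted p = 0.824). At week 12 the log2 fold change was -0.23 (limma adjusted p = 0.983). Of 2017 windows of 50 bases in the longest Cxcl2 transcript, 108 also occurred in Cxcl3. A single read no longer than such a window and lying within it could not be assigned to 1 gene by sequence. That transcript is annotated with 1 exon and the coding transcript with 3, so not every window need lie in the spliced RNA.

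Neutrophils are the cells that CXCL2 attracts, and their markers were set beside Cxcl2. Of 10 neutrophil markers 7 were listed, and Ly6g, Ngp and Stfa2l1 were not. S100a9 and Mmp8 were at 0 in at least 1 library. The summed count of the 7 was 89.0 to 209 in sedentary and 232 to 383 in active week 18 tumours, with 0 of 7 called by limma. S100a8, a calcium-binding protein abundant in neutrophils, had 11.5, 45.5 and 46.6 normalized counts in sedentary and 79.1, 90 and 197 in active week 18 tumours. All 3 active values were higher. The 197, in active week 18 replicate 3, was a large part of that library's sum of 383. Csf3r, also a large part of the sum, overlapped between the week 18 groups. It had 67, 116 and 72.4 in sedentary and 60.3, 103 and 82 in active tumours. The log2 fold change was above 0 for 5 of the 7 markers (51.1% of all genes) and below 0 for Csf3r, at -0.05, and Il1r2, at -0.30. The active libraries lay wholly above the sedentary ones for 3 of the 7 (6.03% of all genes), namely S100a8, S100a9 and Mmp8. The part of these cells in the Cxcl2 value was not tested.

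Cxcl5 (chr5:90759360-90761624) encodes LIX, made largely by epithelium. Its normalized counts were 30, 17.9 and 5.61 in sedentary and 16.4, 19.6 and 0 in active tumours at week 12. The 0, in active replicate 3, allows up to 3 reads, or 3.35 normalized counts, for counting error only. At week 18 there were 9.57, 17.2 and 0.991 in sedentary and 35.4, 3.5 and 23.2 in active tumours. Both groups spread widely and overlapped at both weeks. Log2 fold changes were -1.15 at week 12 (limma adjusted p = 0.97) and 1.12 at week 18 (limma adjusted p = 0.847). Without active week 12 replicate 3 the week 12 value was 0.27.

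Ccl3 (chr11:83647844-83649355) and Ccl4 (chr11:83662584-83664683) encode MIP-1 alpha and MIP-1 beta, which activated macrophages and lymphocytes release. Ccl3 had 18, 6.32 and 9.36 normalized counts in sedentary and 10.9, 10.3 and 3.35 in active tumours at week 12. At week 18 it had 7.66, 18.2 and 4.96 in sedentary and 4.16, 30.6 and 2.67 in active tumours. Active week 18 tumours thus held both the highest and the lowest Ccl3 value of the 12. Log2 fold changes of Ccl3 were -0.43 and -0.24 at weeks 12 and 18 (limma adjusted p = 0.97 and 0.961).

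Ccl4 had 37.2, 10.5 and 11.2 normalized counts in sedentary and 15.5, 7.21 and 0 in active tumours at week 12. It had 8.62, 18.2 and 4.96 in sedentary and 13.5, 33.2 and 16.9 in active tumours at week 18. The groups overlapped at both weeks, and the 0 was again in active week 12 replicate 3. The log2 fold change of Ccl4 was -1.77 at week 12 (95% interval -4.66 to 1.12, limma adjusted p = 0.97) and 1.01 at week 18 (95% interval -0.34 to 2.36, limma adjusted p = 0.824). With replicate number as a block, the limma adjusted p of Ccl4 at week 18 was 0.609. Leaving out 1 library at a time, the week 12 value ran from -2.61 to -0.591 and the week 18 value from 0.609 to 1.45. The week 12 value nearest 0, -0.591, was the one without active week 12 replicate 3.

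The difference between the activity effects of the 2 weeks was tested over all 12 tumours. It was called for 0 of 9 genes, against 0.0104% of 19241 genes, and 0 of 9 had an unadjusted p under 0.05, against 6.33%. The difference, week 18 minus week 12, was above 0 for 8 genes (48.5% of all genes) and below 0 for Cxcl2, with a median of 0.38 against -0.02 over all genes. Without sedentary week 18 replicate 1 it was above 0 for 3 of 9, and without active week 12 replicate 3 for 5 of 9. The value furthest from 0 was that of Ccl4, at 2.78 on the log2 scale (95% interval -0.27 to 5.82, limma adjusted p = 0.77). Cxcl5 followed with 2.27 (limma adjusted p = 0.78). Leaving out 1 library at a time, the difference ran from 1.6 to 3.62 for Ccl4 and from 0.854 to 3.18 for Cxcl5. Both lowest values were those without active week 12 replicate 3.

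From week 12 to week 18 no chemokine gene was called in sedentary tumours, where 0.0052% of all genes were, or in active tumours, where 0.0156% were. None had an unadjusted p under 0.05, against 3.64% and 17.7% of all genes. The 2 weeks overlapped for all 9 genes in both activity groups, while they did not overlap for 10.3% of all genes in sedentary and 24.8% in active tumours. All 8 muscle markers lay wholly lower at week 18 in sedentary tumours, with a median log2 fold change of -4.77. All 8 adipocyte markers did so in active tumours, with a median of -4.97. The part of these shifts in the chemokine values was not tested. In sedentary tumours the log2 fold change of week 18 over week 12 ran from -1.18 for Cxcl1 to 0.85 for Cxcl2, above 0 for 2 of 9 genes (47% of all genes), with limma adjusted p = 1 for each. In active tumours it ran from -0.80 for Cxcl1 to 2.01 for Ccl4 (95% interval for Ccl4 -0.14 to 4.17, limma adjusted p = 0.298). Without active week 12 replicate 3 the Ccl4 value was 0.833. Without sedentary week 18 replicate 1, 6 of the 9 sedentary values were above 0, and without sedentary week 18 replicate 2, 1 was. Without active week 12 replicate 3, 2 of the 9 active values were above 0, against 6 with it (47.5% of all genes), and without active week 12 replicate 1, 8 were.

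Some genes of the Ccl2 cluster varied together from tumour to tumour. Over 36 gene pairs, correlations of log2(normalized count + 1) across 12 tumours passed a permutation test with Benjamini-Hochberg adjustment for 4 pairs by Pearson's r and 1 by Spearman's rho. All 4 were among the 6 pairs of Ccl2, Ccl7, Ccl8 and Ccl12. Ccl7 and Ccl12 passed both, with r = 0.84 (permutation p = 0.00014, adjusted p = 0.00504) and rho = 0.85 (permutation p = 0.0007, adjusted p = 0.0252). Leaving out the 2 tumours furthest from the Ccl7 median gave r = 0.79, and deviations from the 4 group means gave 0.90. Ccl7 and Ccl8 had r = 0.82 (permutation p = 0.00084, adjusted p = 0.0101) and rho = 0.78 (permutation p = 0.00401, adjusted p = 0.0722), with r = 0.73 without the 2 furthest tumours and 0.93 within groups.

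Ccl2 and Ccl7 had r = 0.91 (permutation p = 0.00043, adjusted p = 0.00774) and rho = 0.70 (permutation p = 0.0143, adjusted p = 0.128). Without active week 12 replicate 1 and sedentary week 18 replicate 1, the tumours with the most and the least Ccl2, r was 0.50. For Ccl2 and Ccl12, r was 0.74 (permutation p = 0.00408, adjusted p = 0.0367) and rho 0.61 (permutation p = 0.0396, adjusted p = 0.285), and r was 0.34 without the same tumours. The other 2 pairs of this cluster did not pass. Ccl2 and Ccl8 had r = 0.55 (permutation p = 0.0727, adjusted p = 0.291) and rho = 0.38 (permutation p = 0.225, adjusted p = 0.791), with r = -0.06 without the same tumours. Ccl8 and Ccl12 had r = 0.63 (permutation p = 0.0285, adjusted p = 0.147) and rho = 0.72 (permutation p = 0.0111, adjusted p = 0.128). The relations of Ccl2 therefore rested in large part on those 2 tumours. These tumours were the highest and the lowest for Ccl2, Ccl7 and Ccl12, and sedentary week 18 replicate 1 was also the lowest for Ccl8.

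**Figure D4:**
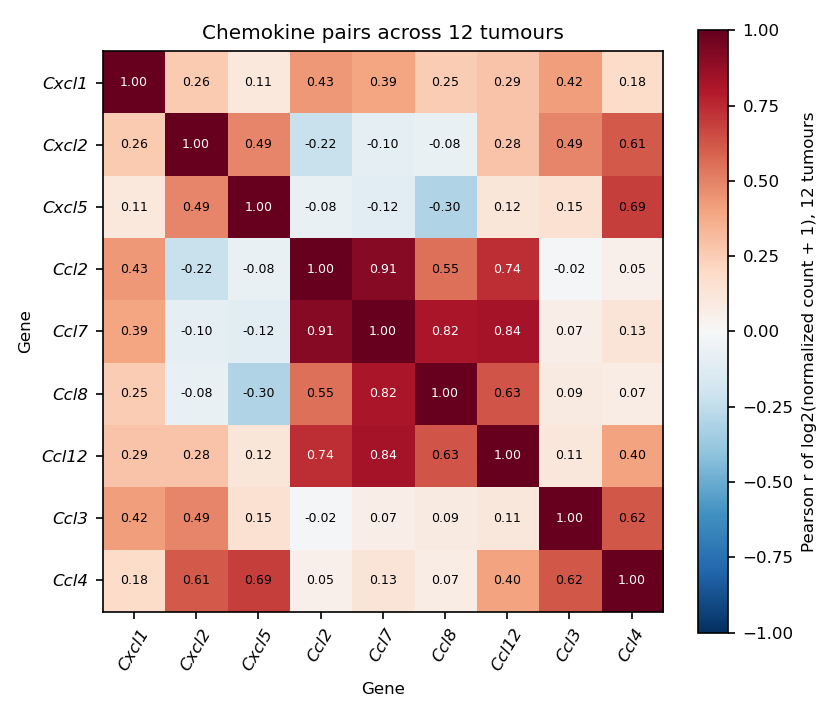
Pearson's r of log2(normalized count + 1) across 12 tumours for each pair of listed chemokine genes, from blue (-1) to red (1). The block of Ccl2, Ccl7, Ccl8 and Ccl12 holds values of 0.55 to 0.91, and Cxcl1 has 0.26 with Cxcl2.

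Cxcl1 and Cxcl2, neighbours whose promoters are printed above with the same NF-kB run, had r = 0.26 (permutation p = 0.419, adjusted p = 0.774) and rho = 0.32 (permutation p = 0.311, adjusted p = 0.80). Without the 2 tumours with 3 Cxcl1 reads each, r was 0.80, so this value too turned on a pair of libraries. Among the tumours left, active week 12 replicate 3 was the lowest in both genes, with 15.6 normalized counts of Cxcl1 and 1.12 of Cxcl2. The 0.80 was not computed again without that library, so it does not show that the 2 genes varied together. Ccl3 and Ccl4, neighbours on chromosome 11, had r = 0.62 (permutation p = 0.0265, adjusted p = 0.147) and rho = 0.57 (permutation p = 0.0548, adjusted p = 0.322). Cxcl5 and Ccl4 had r = 0.69 (permutation p = 0.0149, adjusted p = 0.107) and rho = 0.46 (permutation p = 0.137, adjusted p = 0.567), with r = -0.06 without 2 tumours, among them active week 12 replicate 3, in which both genes had 0 reads.

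Ccl7 and Ccl8 followed the summed normalized count of 12 macrophage markers, among them Adgre1, Csf1r, C1qa and Mrc1. Over 27 relations of 9 genes with macrophage, monocyte and neutrophil marker sums, 2 passed by Pearson's r and 1 by Spearman's rho. The highest monocyte sum, 9153 in sedentary week 18 replicate 1, was mostly the marker Vcan, with 8700 normalized counts. In that tumour Plac8 (16.3) and Ms4a4c (12.4) were at their lowest, and Ly6c2 (5.74) and F13a1 (422) were near theirs. The relations with the monocyte sum therefore cannot show whether a gene followed monocytes. Ccl7 had r = 0.89 with the macrophage sum (permutation p = 0.00057, adjusted p = 0.0154) and rho = 0.83 (permutation p = 0.00132, adjusted p = 0.0356). Without the 2 tumours furthest in the macrophage sum r was 0.61, and within groups it was 0.93. Ccl8 had r = 0.82 (permutation p = 0.00114, adjusted p = 0.0154) and rho = 0.66 (permutation p = 0.0243, adjusted p = 0.164), with 0.77 without those tumours and 0.87 within groups. Ccl2 did not pass, with r = 0.76 (permutation p = 0.0101, adjusted p = 0.0909) and rho = 0.43 (permutation p = 0.171, adjusted p = 0.50), and r was 0.13 without those tumours. None of the CXC genes passed with any of the 3 sums. For Cxcl2 and the neutrophil sum r was -0.50 (permutation p = 0.103, adjusted p = 0.31) and rho -0.66 (permutation p = 0.023, adjusted p = 0.164).

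**Figure D5:**
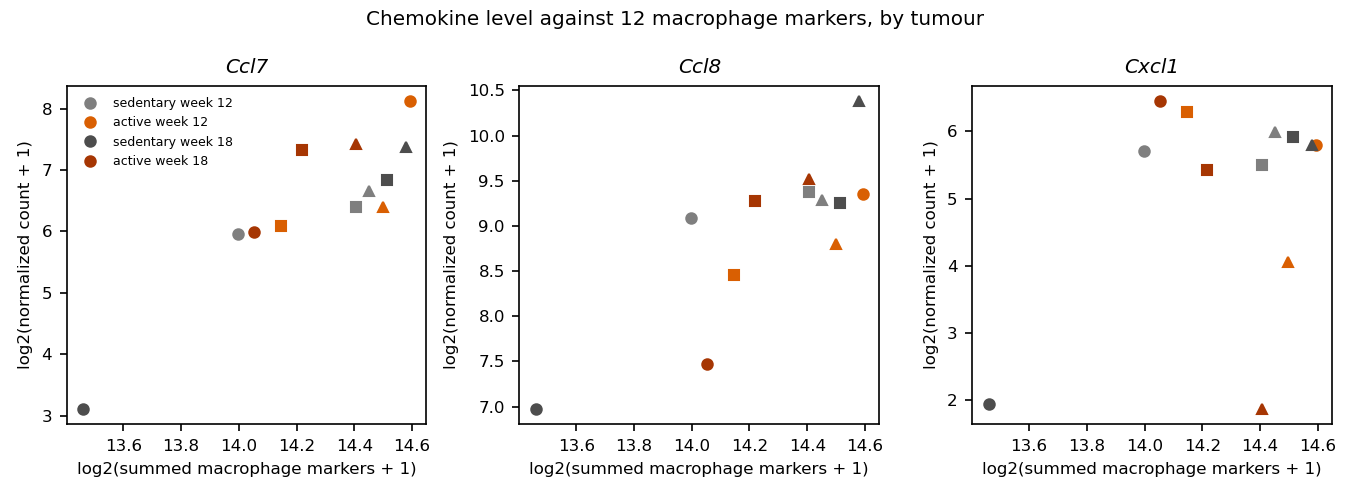
Ccl7, Ccl8 and Cxcl1 as log2(normalized count + 1) against log2 of the summed normalized counts of 12 macrophage markers + 1, each point 1 tumour coloured by group (symbols give replicates 1 to 3 as circle, square and triangle). Sedentary week 18 replicate 1 is at the lower left of the Ccl7 and Ccl8 panels, and the Cxcl1 panel shows 2 tumours with 3 reads each, one of them that library.

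Outside the list, the genes with the closest pattern over the 12 tumours were sought among the 14342 genes whose mean reached 50 in some group, as a description. Ccl2 was most like Ccr1, a receptor of inflammatory CC chemokines, with r = 0.94. Ccl7 was most like Ccl9, and Ccl8 most like Ccl6, both further CC chemokines of mouse myeloid cells, with r = 0.94 each. Ccl12 was most like C3ar1, the receptor of complement fragment C3a, with r = 0.89, and next like Fcgr3, an Fc receptor, with r = 0.88. Cxcl1 was most like Rnf39 with r = 0.96, Cxcl2 most like Gm7694 with 0.89 and Cxcl5 most like Tmem237 with 0.87. Ccl3 was most like Pls1 with 0.81, and Ccl4 most like Snx16 with 0.94. The next genes were Plxdc2 and Tmem67 for Cxcl1, Atp13a4 and Nos1ap for Cxcl2, Shc4 and Ttc30a1 for Cxcl5, and Rbpj and Serpinb6a for Ccl2. They were P2ry6 and Cstf2t for Ccl7, L1cam and Alox5ap for Ccl8, Nexmif as the third for Ccl12, Pigg and Zfp946 for Ccl3, and Id2 and Frk for Ccl4. Of these 27 genes, 8 were also among the closest when deviations from group means were used, and 7 without active week 12 replicate 3.

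Ccr1 had 40.2 normalized counts in sedentary week 18 replicate 1, the lowest of 12, and 358 in active week 12 replicate 1, the highest. These are the same tumours that were lowest and highest in Ccl2. Ccl6 had 128 and 253 in replicate 1 of the sedentary and the active week 18 groups, against 921 to 2840 in the other 10 tumours. Those 2 tumours were also the lowest in Ccl8.

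The receptors of these chemokines and the genes around them were read from lists. Over all genes limma called 0.517% for activity at week 12, 0% for activity at week 18, 0.0104% for the difference between weeks, and 0.0052% and 0.0156% for week 18 over week 12 in sedentary and active tumours. Of 8 receptors 7 were listed, and limma called 0 in any of these 5 comparisons. The smallest p among the receptors was that of Cxcr2, the receptor of the CXC members, which had 1.91, 2.02 and 1.98 normalized counts in sedentary and 9.36, 6.99 and 2.67 in active week 18 tumours. The active values were all higher, at very low counts, with a log2 fold change of 1.18 (limma adjusted p = 0.824). Cxcr2 had 166 in active week 12 replicate 3, the library with the B and T cell markers, and 0.936 to 7.29 in the other week 12 libraries.

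Of 13 other myeloid chemokines and growth factors, 12 were listed and limma called 0 in any comparison. The smallest p was that of Ccl24, an eosinophil attractant, with 35.5, 17.5 and 120 normalized counts in active tumours at week 12 and 2.08, 12.2 and 8.02 at week 18. Its 2 weeks did not overlap, with a log2 fold change of -2.60 (limma adjusted p = 0.207), and of -1.86 without active week 12 replicate 3 (limma adjusted p = 0.46). DESeq2 on the recovered reads called it, with -2.94 and an adjusted p of 0.0186, and edgeR did not, with an adjusted p of 0.143.

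Among 10 cytokines and sensors that induce chemokines, 9 were listed, and limma called 0 in any comparison. Il1a, the alarmin interleukin 1 alpha, had the smallest p, with 17.2, 25.3 and 19.8 normalized counts in sedentary and 67.6, 44.6 and 26.7 in active week 18 tumours. All active values were higher, for a log2 fold change of 1.04 (limma adjusted p = 0.824). Of 13 NF-kB regulators and targets, limma called 0 in any comparison. Ptgs2, which encodes cyclooxygenase 2, had the smallest p, in the difference between the 2 weeks, at 4.22 on the log2 scale (limma adjusted p = 0.743). At week 12 Ptgs2 had 660, 62.2 and 102 in sedentary and 82.9, 136 and 16.7 in active tumours, and at week 18 it had 12.4, 104 and 52.5 against 488, 113 and 416. Active week 18 replicate 1 stood apart in this list. Nfkb2 had 5560, 1000 and 1340 in the active week 18 libraries, Relb 2580, 481 and 541, and Nfkbia 5130, 1070 and 1020. Rel and Zfp36 went the other way, and Nfkbiz lay between the other active week 18 values. That library also had the most Cxcl1 and Cxcl5, and the cause was not tested.

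Of 14 type I interferon response genes, 0 were called by limma in any comparison. At week 12, 2 of the 14 had a log2 fold change above 0 (51.7% of all genes) and 12 below 0, with a median of -0.66 against 0.01 over all genes. The active libraries lay wholly below the sedentary ones for 11 of the 14, as for 4.78% of all genes, and 8 had an unadjusted p under 0.05 (4.09% of all genes). Cxcl10, itself a chemokine gene, lay wholly higher in active libraries, with 168, 113 and 161 against 109, 91.7 and 106. Ifit3, an antiviral gene of this response, had 2000, 1840 and 2260 normalized counts in sedentary and 1100, 1050 and 1160 in active week 12 tumours. These groups did not overlap, with a log2 fold change of -0.88 (limma adjusted p = 0.183), and DESeq2 called it with -0.90 and an adjusted p of 5.07e-08. The other fits did not call Ifit3, with an adjusted p of 0.0713 by edgeR, 0.0759 by limma-voom and 0.72 by limma with the replicate block. Ccl2, Ccl7, Ccl8 and Ccl12 had log2 fold changes of -0.38 to 0.73 in the same comparison, all with overlapping groups. The muscle marker sums set the same week 12 groups apart, and their part in the interferon values was not tested. At week 18 the direction was the reverse. All 14 interferon genes were above 0 in active over sedentary tumours (51.1% of all genes), with a median of 0.45 and 0 of 14 without overlap.

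The authors' deposited table gave Ccl2 a log2 fold change of 0.85 at week 12 (adjusted p = 0.895) and of 1.07 at week 18 (adjusted p = 0.757). The authors' deposited table for week 18 gave Cxcl2 an adjusted p of 0.84. The 18 adjusted p-values of the 9 genes in the authors' deposited tables ran from 0.757 to 0.999, in tables that put 204 genes at week 12 and 41 at week 18 under 0.05.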

How the data were processed

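RNA was sequenced from 12 tumours, per the labels' protocols after TRIzol extraction and stranded mRNA library preparation. The authors deposited a normalized signal per gene and library. It equalled whole reads times 1 step per library for 100% of values (within 1e-04 of a read), although the step of sedentary week 18 replicate 3, 0.991, was too near 1 for a formal check. The steps matched the median of ratios over all 12 tumours. The authors' tables also gave a log2 fold change and a p-value per gene. The build was mm10 per the submitters' processing notes, and the aligner and counter are not given in the sources used here. The authors' other tables, with 12 per-sample columns, were not used, and no library of hematopoietic stem cells entered the results.

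limma 3.58.1 in R 4.3.3 was fitted to log2(normalized count + 1) for genes whose mean reached 1 in some group, with Benjamini-Hochberg adjustment over all of them at 0.05. It was tested on simulated data with large changes in genes of higher counts only. That test does not cover small changes, or counts as low as those of Cxcl2, Cxcl5, Ccl3 and Ccl4. This scale understates the change of low genes. Alternatives on the recovered reads used edgeR 4.0.16, DESeq2 1.42.0 and limma-voom. Correlations used 100000 permutations. Same-numbered week 18 libraries deviated together across genes (r = 0.163, 0.159 and 0.138), which by the rule of 0.1 paired them, and in the other comparisons they did not. The chemokines, lists and tests were chosen with earlier results of these data known. Named were all the chemokines, the gene with the smallest p of each list without a call, and the 3 genes most like each chemokine. Reads carry no molecular identifiers, so limits cover counting error only.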

Additional observations from a re-analysis of the deposited data

How the results depend on the processing

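No alternative called any of the 9 chemokines: over 926 refitted values the smallest adjusted p was 0.222, and 79 changed sign. With the replicate block, the log2 fold change of Ccl2 at week 18 was 1.36 (limma adjusted p = 0.689), and the block changed no chemokine's call. Over all genes, limma called 99 at week 12, 0 at week 18 and 2 for the difference between weeks, where the replicate block called 0, 0 and 69, edgeR 76, 0 and 0, limma-voom 56, 0 and 0, and DESeq2 208, 52 and 174. From week 12 to week 18 limma called 1 gene in sedentary and 3 in active tumours, edgeR 0 and 0, and DESeq2 79 and 1680. Without 1 sedentary week 12 library, limma called 9 to 34 genes at week 12. With 3 libraries a group, intervals of several log2 units at low counts limit what could be detected. The order of levels was the same with both other transcript lengths.

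Leaving out 1 library at a time turned the sign of the following log2 fold changes, given as the range over libraries left out. At week 12 they were -0.326 to 0.331 for Ccl12, -0.745 to 0.0401 for Ccl3, -0.0934 to 0.923 for Ccl7, -0.81 to 0.308 for Cxcl1, -0.674 to 0.59 for Cxcl2 and -1.91 to 0.268 for Cxcl5. At week 18 they were -0.133 to 0.422 for Ccl12, -1.2 to 0.357 for Ccl3, -0.192 to 1.94 for Ccl7, -1.06 to 0.643 for Ccl8 and -1.28 to 1.38 for Cxcl1. For the difference between weeks they were -0.217 to 0.547 for Ccl12, -0.0902 to 1.13 for Ccl2, -0.762 to 0.79 for Ccl3, -0.723 to 1.41 for Ccl7, -0.677 to 1.02 for Ccl8 and -0.92 to 1.74 for Cxcl1. For week 18 over week 12 in sedentary tumours they were -0.0733 to 0.482 for Ccl12, -1.21 to 0.0125 for Ccl2, -0.653 to 0.195 for Ccl3, -1.36 to 0.766 for Ccl7, -1.14 to 0.565 for Ccl8 and -1.86 to 0.123 for Cxcl1. For week 18 over week 12 in active tumours they were -0.387 to 0.42 for Ccl2, -0.942 to 0.61 for Ccl3, -0.349 to 0.667 for Ccl7, -0.494 to 0.53 for Ccl8, -1.73 to 0.556 for Cxcl1, -0.631 to 0.617 for Cxcl2 and -0.259 to 2.06 for Cxcl5.

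The other alternatives turned these signs, where edgeR, DESeq2 and limma-voom ran on recovered reads. At week 12, edgeR gave 0.00734 for Cxcl2. At week 18, scaling by total reads gave -0.0389 for Cxcl1, edgeR gave 0.291 for Ccl3, DESeq2 gave 0.293 for Ccl3 and limma-voom gave -0.0125 for Cxcl1. For the difference between weeks, edgeR gave -0.322 for Ccl7, -0.0659 for Ccl8 and -0.0379 for Ccl12 and DESeq2 gave -0.346 for Ccl7, -0.0941 for Ccl8 and -0.0598 for Ccl12. For week 18 over week 12 in sedentary tumours, edgeR gave 0.223 for Ccl7 and 0.175 for Ccl8 and DESeq2 gave 0.223 for Ccl7 and 0.175 for Ccl8. For week 18 over week 12 in active tumours, a pseudocount of 0.1 gave -0.0413 for Ccl3, scaling by total reads gave -0.00941 for Ccl7 and -0.0305 for Ccl3, edgeR gave -0.167 for Cxcl2, -0.0989 for Ccl7 and 0.109 for Ccl8, DESeq2 gave -0.2 for Cxcl2, -0.123 for Ccl7 and 0.0809 for Ccl8 and limma-voom gave -0.000655 for Ccl3. The cause of these changes was not tested.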
